A study of Homo sapiens with 12 samples.

Results

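The tricarboxylic acid (TCA) cycle was followed gene by gene in C4.2B cells through 9 of its enzyme genes, CS, IDH1, IDH2, IDH3A, IDH3B, OGDH, SDHA, FH and MDH2. They were taken by name, with no threshold on a measured value, and all 9 were found among the 23228 genes of the count files. C4.2B is an established castration-resistant human prostate cancer line derived from LNCaP, so every library comes from a single line. PolyA RNA was sequenced as 12 libraries, 3 replicates (A, B and C) for each of 4 arms. The DMSO arm received vehicle throughout. The GDC arm was kept in vehicle and then received 0.5 µM of the PI3K inhibitor GDC-0941 for 24 h. The GSK arm was pretreated with 5 µM of the EZH2 inhibitor GSK126 for 6 days and stayed on it for those 24 h, and the COMBO arm had the same pretreatment and then both agents. All arms spent the last 24 h in medium with 10% charcoal-stripped serum, which is low in steroid hormones. EZH2 is the enzyme that places the repressive trimethyl mark on lysine 27 of histone H3. Replicates were plates seeded from the same cells, so p-values measure the spread between plates.

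The cycle oxidizes the acetyl group of acetyl-CoA inside mitochondria and passes the electrons, as NADH and through FAD, to the respiratory chain. Its intermediates also leave for synthesis of fatty acids, aspartate and glutamate, and are replaced from pyruvate and glutamine. Prostate epithelium is known for secreting citrate instead of oxidizing it, and prostate cancer cells for regaining citrate oxidation. Of the genes followed here, CS makes citrate, the IDH genes turn isocitrate into 2-oxoglutarate, OGDH turns 2-oxoglutarate into succinyl-CoA, SDHA oxidizes succinate, FH hydrates fumarate and MDH2 regenerates oxaloacetate. IDH1 encodes the NADP enzyme of cytosol and peroxisomes, so it stands outside the mitochondrial cycle proper.

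Between 8785218 and 44437751 reads per library were counted in genes, and the deepest library was DMSO replicate C. The share of reads falling outside annotated genes was 14.2% ± 0.481 for DMSO, 15.6% ± 0.268 for GDC, 18.8% ± 0.264 for GSK and 21.8% ± 1.07 for COMBO (SD, n = 3), and the part of this shift in the results below was not tested. All 10 markers of prostate luminal cells had counts in every arm, with a summed level of 3445 to 3664 CPM (counts scaled to TMM library size) in DMSO and 5668 to 6113 CPM in COMBO. From DMSO to COMBO, HOXB13 went from 484 to 304 CPM, EPCAM from 115 to 80.25 CPM and KRT18 from 322 to 320 CPM. The other luminal markers had higher means in COMBO. The 5 fibroblast markers summed to 11.5 to 13.4 CPM in DMSO and 29.8 to 48.2 CPM in COMBO, most of it COL1A1, with COL1A2 at 0 in DMSO, GDC and COMBO. DCN and LUM were at 0 in DMSO and at 0.21 and 0.12 CPM in COMBO. The 4 endothelial and 5 leukocyte markers summed to at most 7.07 and 9.58 CPM, and PECAM1 was at 0 outside GSK and CD3E at 0 in all arms. Most of these sums came from VWF and CD68, whose means were 2.97 and 5.32 CPM in DMSO and 5.13 and 8.08 CPM in COMBO.

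The promoters of the members did not look alike, so a few are printed to show the range. Promoter windows of 250 bases before to 50 bases after the RefSeq start (GRCh38.p14) were found for 8 of the 9 members, with 2 windows for IDH1. One window of each of 7 members begins at the MANE Select start of GENCODE, whereas that of IDH2 lies 1847 bases downstream of it, so the IDH2 window and the other IDH1 window, which lies 613 bases downstream, were left out. The 150 bases upstream of the start are given 5′ to 3′ on the gene's strand, with matches to the searched motifs in capitals. Of the members printed, CS and IDH3A hold GC boxes, MDH2 holds a pair of ETS motifs, and SDHA holds none of the motifs.
CS (chr12:56300331-56300480, strand -): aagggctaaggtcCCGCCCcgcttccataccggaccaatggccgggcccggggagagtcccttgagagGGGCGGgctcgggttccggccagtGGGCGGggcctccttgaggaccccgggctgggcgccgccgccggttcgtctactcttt
IDH3A (chr15:78149212-78149361, strand +): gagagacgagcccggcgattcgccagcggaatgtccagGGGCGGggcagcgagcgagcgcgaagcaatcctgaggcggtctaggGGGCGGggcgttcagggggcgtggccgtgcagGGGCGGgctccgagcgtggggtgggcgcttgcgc
MDH2 (chr7:76047956-76048105, strand +): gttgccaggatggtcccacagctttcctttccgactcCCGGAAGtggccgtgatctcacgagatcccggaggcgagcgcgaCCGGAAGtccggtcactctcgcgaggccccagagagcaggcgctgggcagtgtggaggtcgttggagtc
SDHA (chr5:218170-218319, strand +): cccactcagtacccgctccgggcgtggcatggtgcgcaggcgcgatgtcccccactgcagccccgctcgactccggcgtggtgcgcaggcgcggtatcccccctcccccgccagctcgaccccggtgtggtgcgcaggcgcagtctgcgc
In these sequences the capitals mark the GC box (GGGCGG, read as CCGCCC on the other strand) and the ETS motif (CCGGAAG). Both strands of the whole 300-base windows were searched for 6 motifs. The shares given for all promoters take every window, including those that do not begin at a MANE Select start, unlike the windows counted for the members. A GC box was found in 4 of the 7 members (CS, IDH1, IDH3A and FH), beside 45.0% of all 35116 promoters. The ETS motif was found in 2 (IDH3B and MDH2), beside 10.3% of all promoters. The E-box CACGTG, the NRF1 core GCATGCGC, the CRE TGACGTCA and the YY1 motif AAGATGGC matched in 0 of 7 members, and in 7.26%, 3.05%, 1.85% and 2.89% of all promoters, respectively. SDHA held none of the 6 motifs in its window. No member held both the GC box and the ETS motif, so these matches did not overlap. These matches describe the letters of the windows and were not tied to binding.

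In untreated cells the 9 genes spanned a wide range of levels. Per length (RPKM, CPM divided by the kilobases of the MANE Select transcript), MDH2 at 278 ± 9.84 and CS at 269 ± 4.48 had the highest levels in DMSO (SD, n = 3), and their libraries overlapped. IDH1 came next at 256 ± 4.97, followed by FH at 160 ± 3.77, OGDH at 123 ± 4.53, SDHA at 111 ± 4.12, IDH2 at 86.2 ± 6.77, IDH3B at 73.3 ± 3.51 and IDH3A at 46.1 ± 0.659. Below CS, no neighbours in that order overlapped between their DMSO libraries. In COMBO the order was MDH2 at 182 ± 2.65, IDH1 at 142 ± 5.80, CS at 132 ± 0.693, OGDH at 87.8 ± 3.83, SDHA at 83.4 ± 3.05, FH at 76.9 ± 1.85, IDH2 at 62.9 ± 1.15, IDH3B at 47.2 ± 0.572 and IDH3A at 20.8 ± 1.61. OGDH and SDHA overlapped there and no other neighbours did. CS had moved below IDH1, and FH below OGDH and SDHA.

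**Figure D1:**
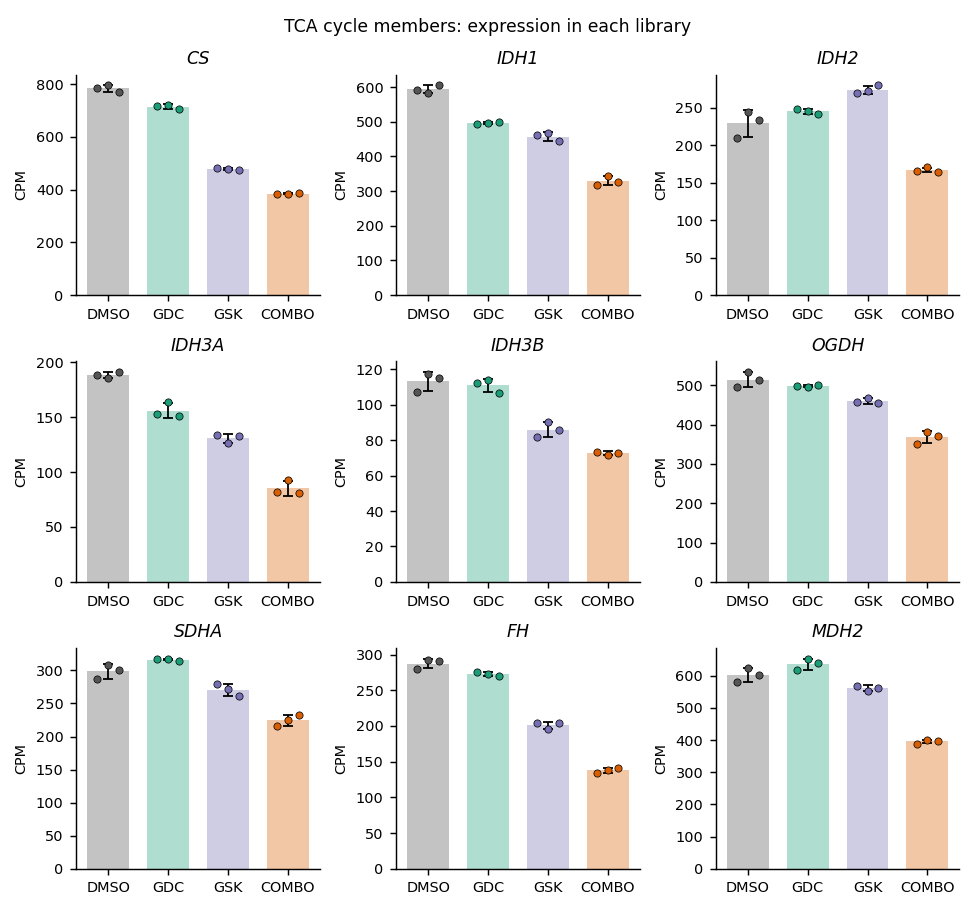
Expression of each member in the 12 libraries, in CPM on an axis from 0. Bars are arm means, error bars are SD (n = 3) and points are libraries. In every panel the COMBO libraries lie below all DMSO libraries, and IDH2 is the panel in which GSK lies above DMSO. The share of all genes with libraries separated in this way was not counted. Of all genes tested, 39.2% were called lower in COMBO.

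The first comparison asked how far each enzyme transcript moved when both agents were given together. All 9 members fell in COMBO, by 24.9% (SDHA) to 54.7% (IDH3A) of the DMSO level. CS, FH and the catalytic subunit IDH3A each fell by more than 1 log2 unit. The smallest falls were at OGDH, SDHA and IDH2. The count was 0 higher and 9 lower of 9 members at an adjusted p under 0.05 (edgeR quasi-likelihood test, Benjamini-Hochberg over 14189 genes), while 43.3% of all genes tested were higher and 39.2% were lower. The median log2 fold change of the members was -0.64, against 0.054 over all genes tested. Levels are relative to the scaled size of each library, so these falls are relative to other genes. Transcripts per cell were not measured.

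With GSK126 alone, 8 of 9 members were lower and IDH2 was higher, at a background of 35.7% of genes lower and 40% higher, and the members' median log2 fold change was -0.38 (all genes 0.058). GDC-0941 alone gave 3 lower members (CS, IDH1 and IDH3A) and 0 higher, at a background of 20% in each direction, and a median of -0.046 (all genes 0.016). A count of 3 among 9 is near that background. The 3 arms share the same DMSO libraries, so their values are set side by side and not correlated. The plot of changes by member shows that values descended from GDC through GSK to COMBO at every member other than IDH2.

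**Figure D2:**
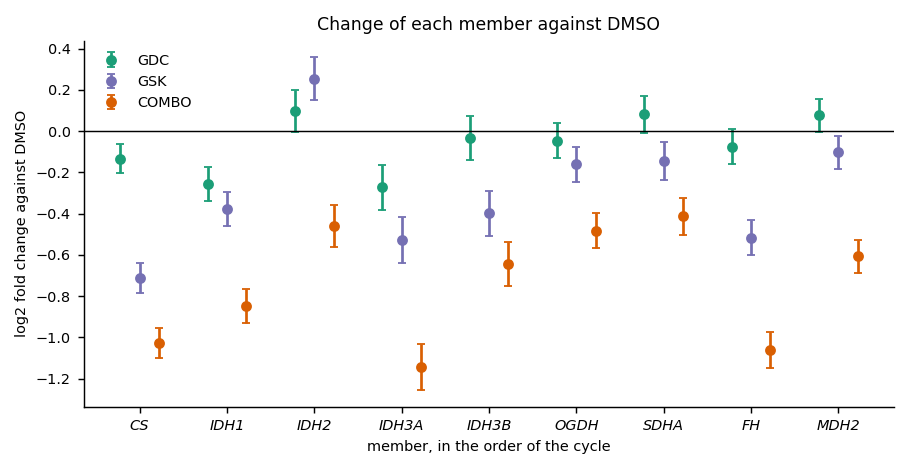
Log2 fold change of each member against DMSO for GDC, GSK and COMBO, with 95% intervals from edgeR, in the order of the cycle. COMBO is the lowest point for all 9 members, from -0.41 at SDHA to -1.14 at IDH3A, and IDH2 under GSK, at 0.26, is the one single-agent point called above 0.

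CS, citrate synthase (12:56271699-56300391, minus strand, hg38), condenses acetyl-CoA with oxaloacetate and opens the cycle. Its level was 785, 796 and 770 CPM in DMSO replicates A, B and C. It was 718, 721 and 705 CPM in GDC, 483, 477 and 474 CPM in GSK, and 383, 384 and 387 CPM in COMBO. The 4 arms formed 4 separate steps with no overlap, and the COMBO libraries were within 4 CPM of one another. The log2 fold change was -0.13 ± 0.034 (SE) with GDC-0941 (adjusted p = 0.00425), -0.71 ± 0.035 with GSK126 (adjusted p = 3.53e-13) and -1.03 ± 0.035 with both (adjusted p = 4.16e-16). CS fell by 39.0% with GSK126 alone, the lowest single-agent value among the 9.

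The isocitrate dehydrogenases divided by isoform. IDH3A and IDH3B encode subunits of the NAD-dependent mitochondrial enzyme, IDH2 the NADP-dependent mitochondrial enzyme and IDH1 its cytosolic counterpart. IDH3A (15:78131498-78171945, plus strand), the catalytic subunit, stood at 188, 186 and 191 CPM in DMSO, 153, 163 and 151 CPM in GDC, 134, 126 and 133 CPM in GSK, and 82.1, 92.7 and 80.6 CPM in COMBO. Each arm lay below the one before it without overlap. The changes were -0.27 ± 0.052, -0.53 ± 0.054 and -1.14 ± 0.054 on the log2 scale (adjusted p = 0.000369, 2.48e-08 and 7.40e-14), the last being the lowest COMBO value of the 9. IDH3A overlaps 2 counted genes on the opposite strand, and the strand setting of the counting is not given, so shared reads are uncertain. One of them, CIB2, had 5.15 CPM in DMSO and 34.1 CPM in COMBO, and the other, ACSBG1, had 1.01 and 3.23 CPM, so both moved opposite to IDH3A.

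IDH3B (20:2658395-2664219, minus strand), a regulatory partner of IDH3A, was less affected. It stood at 107, 117 and 115 CPM in DMSO, 112, 114 and 107 CPM in GDC, 81.5, 90.3 and 85.9 CPM in GSK, and 73.6, 71.8 and 72.8 CPM in COMBO. GDC overlapped DMSO, and its change of -0.033 had a 95% interval of -0.14 to 0.072 (adjusted p = 0.633). The changes in GSK and COMBO were -0.40 ± 0.052 and -0.64 ± 0.051 (adjusted p = 8.56e-07 and 3.64e-10). The remaining subunit, IDH3G, also regulatory, was at 62.8 CPM in both DMSO and COMBO, with a log2 fold change of -0.011 (95% interval -0.13 to 0.11, adjusted p = 0.865), and was higher in GSK (0.28, adjusted p = 0.000226). The 3 subunits of a single enzyme therefore had COMBO intervals that did not overlap one another.

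IDH1 (2:208236229-208266074, minus strand) was at 592, 583 and 606 CPM in DMSO, 494, 496 and 500 CPM in GDC, 462, 467 and 444 CPM in GSK, and 318, 345 and 326 CPM in COMBO. Every arm lay below DMSO and the arms did not overlap. The changes of the GDC, GSK and COMBO arms were -0.26 ± 0.040, -0.38 ± 0.040 and -0.85 ± 0.040 (adjusted p = 3.73e-05, 4.16e-08 and 7.15e-14). IDH1 and IDH3A had the lowest GDC values of the 9.

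IDH2 (15:90083045-90102477, minus strand) went its own way under the single agents. Its levels were 209, 245 and 234 CPM in DMSO, 249, 246 and 242 CPM in GDC, 270, 273 and 281 CPM in GSK, and 166, 171 and 165 CPM in COMBO. GSK lay above every DMSO library, COMBO lay below every one, and GDC overlapped DMSO. IDH2 rose by 0.26 ± 0.049 on the log2 scale in GSK (adjusted p = 9.94e-05) and fell by 0.46 ± 0.049 in COMBO (adjusted p = 3.66e-08). In GDC its value was 0.096 (95% interval -0.0060 to 0.20, adjusted p = 0.127). DMSO replicate A was the low one in its arm, and without it the GDC value was -0.0034.

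As shares of the summed per-length level of the 4 IDH genes, IDH1 took 55.5% ± 1.35 of the DMSO level, 51.4% ± 0.707 of GDC, 50.8% ± 0.993 of GSK and 52.1% ± 0.694 of COMBO (SD, n = 3). IDH2 took 18.7% ± 1.13, 22.2% ± 0.231, 26.6% ± 0.710 and 23.0% ± 0.294, so its share was higher in every treated library than in any DMSO library. IDH3A shrank from 9.99% ± 0.239 to 9.16% ± 0.309, 8.26% ± 0.348 and 7.63% ± 0.375. IDH3B held 15.9% ± 0.452, 17.2% ± 0.432, 14.3% ± 0.606 and 17.3% ± 0.689, without a single direction.

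OGDH (7:44606572-44709066, plus strand) encodes the E1 subunit of the 2-oxoglutarate dehydrogenase complex. It was at 496, 534 and 513 CPM in DMSO, 499, 495 and 501 CPM in GDC, 459, 468 and 455 CPM in GSK, and 351, 382 and 372 CPM in COMBO. GDC overlapped DMSO, whereas GSK and COMBO did not. The changes were -0.046 in GDC (95% interval -0.13 to 0.040, adjusted p = 0.398), -0.16 ± 0.041 with GSK126 (adjusted p = 0.00159) and -0.48 ± 0.041 with both agents (adjusted p = 1.04e-09). The GSK call was lost when libraries were scaled by their totals (-0.0064, adjusted p = 0.887). The E2 and E3 subunits DLST and DLD were also lower in COMBO, at -0.66 ± 0.046 and -0.74 ± 0.053 (adjusted p = 5.04e-11 and 7.28e-11), while OGDHL, a paralog of OGDH of low abundance, rose from 23.5 ± 1.46 to 55.3 ± 3.79 CPM (log2 fold change 1.21, adjusted p = 4.51e-12).

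SDHA (5:218303-257082, plus strand) encodes the flavoprotein subunit of succinate dehydrogenase, which is also complex II of the respiratory chain. It was at 287, 308 and 301 CPM in DMSO, 317, 317 and 315 CPM in GDC, 280, 272 and 261 CPM in GSK, and 217, 224 and 233 CPM in COMBO. GDC lay just above DMSO, with a change of 0.081 that did not pass (adjusted p = 0.144). SDHA fell by 0.14 ± 0.044 in GSK (adjusted p = 0.00590) and by 0.41 ± 0.043 in COMBO (adjusted p = 2.74e-08), all on the log2 scale. With library totals the GSK value was 0.010 (adjusted p = 0.834). SDHA has near-identical pseudogene copies, so some reads may have been split. SDHAP1, SDHAP2 and SDHAP3 held 17.6 ± 1.97, 11.7 ± 1.01 and 5.44 ± 1.35 CPM in DMSO (SD, n = 3). In COMBO they held 20.7 ± 2.42, 13.3 ± 2.61 and 10.5 ± 2.65 CPM. SDHA itself had a mean of 299 CPM in DMSO and 225 CPM in COMBO, so the pseudogene means were higher where SDHA was lower. For SDHAP1 and SDHAP2 the ranges of mean ± SD overlapped between DMSO and COMBO. The part of split reads in the SDHA change was not tested.

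The other subunits of succinate dehydrogenase fell into separate ranges. SDHB, the iron-sulfur subunit, dropped from 130 ± 2.14 CPM in DMSO to 61.3 ± 0.893 CPM in COMBO (log2 fold change -1.08 ± 0.049, adjusted p = 4.04e-14). SDHD, a membrane anchor, went from 220 ± 10.8 to 103 ± 10.8 CPM (-1.09 ± 0.067, adjusted p = 5.86e-12). The other membrane anchor, SDHC, had 142 ± 4.16 and 144 ± 4.75 CPM, a change of 0.023 with a 95% interval of -0.079 to 0.12 (adjusted p = 0.674), and was higher in GSK (0.23, adjusted p = 0.000366). The COMBO intervals of SDHA and SDHC overlapped neither each other nor those of SDHB and SDHD.

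FH (1:241497511-241519799, minus strand), fumarate hydratase, was at 280, 292 and 291 CPM in DMSO, 276, 273 and 270 CPM in GDC, 204, 196 and 204 CPM in GSK, and 135, 138 and 141 CPM in COMBO. All 3 treated arms lay below DMSO, although the GDC change of -0.074 did not pass (95% interval -0.16 to 0.0098, adjusted p = 0.152). It passed in 5 of 13 alternatives, DESeq2 among them (-0.12, adjusted p = 0.0144). The changes were -0.52 ± 0.041 in GSK and -1.06 ± 0.041 in COMBO (adjusted p = 6.29e-10 and 3.53e-15). FH fell by 52.1% in COMBO, close to CS at 51.0%.

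MDH2 (7:76048051-76067508, plus strand) encodes the mitochondrial malate dehydrogenase that closes the cycle. It stood at 581, 624 and 603 CPM in DMSO, 617, 651 and 640 CPM in GDC, 570, 553 and 562 CPM in GSK, and 389, 401 and 397 CPM in COMBO. The GDC libraries overlapped DMSO, the GSK libraries lay just below it and the COMBO libraries were far lower. The changes were 0.077 in GDC (95% interval -0.0026 to 0.16, adjusted p = 0.116), -0.10 ± 0.038 with GSK126 (adjusted p = 0.0214) and -0.61 ± 0.038 with both agents (adjusted p = 9.49e-12). The GSK value was 0.052 with library totals (adjusted p = 0.204), and the call was also lost without GSK replicate C (-0.10, adjusted p = 0.0544). The cytosolic enzyme MDH1, of the malate-aspartate shuttle, was lower in all 3 arms, at -0.13, -0.29 and -0.87 (adjusted p = 0.0346, 2.37e-05 and 1.24e-12).

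Adding the second agent to the first lowered all 9 members in both orders. Against GDC alone, COMBO changes ranged from -0.44 (OGDH) to -0.99 (FH), 0 higher and 9 lower of 9, with 37.9% of all genes higher and 38% lower. Against GSK alone they ranged from -0.24 (IDH3B) to -0.71 (IDH2), again 0 higher and 9 lower, with 19% of all genes higher and 26.9% lower. The medians were -0.61 and -0.47, and those of all genes 0.018 and -0.014. IDH2 had the lowest value when GDC-0941 was added to GSK126, and CS, at -0.31 ± 0.035, had one of the smaller ones. Between the single agents (GSK against GDC), 8 members were lower and IDH2 was higher, with 33.4% and 32.6% of all genes lower and higher, from -0.58 at CS to 0.16 at IDH2. The IDH1 and OGDH calls between the single agents, at -0.12 and -0.11, were lost in 4 and 5 of 13 alternatives, library totals among them (8.32e-05 and 0.0045, adjusted p = 0.999 and 0.927), and also without GDC replicate C, without GSK replicate C and, for OGDH, without GSK replicate A (values -0.087 to -0.11, adjusted p = 0.0527 to 0.106). That of MDH2, at -0.18, was lost with library totals (-0.060, adjusted p = 0.152).

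The next comparison asked whether the COMBO log2 change equalled that of GDC plus that of GSK, which the interaction term (COMBO minus GDC minus GSK plus DMSO) tests. COMBO lay below the sum for all 9 members, by 0.18 (CS) to 0.81 (IDH2), so 0 were higher and 9 lower, with 4.86% of all genes higher and 16.5% lower. IDH2 departed most. Its single-agent changes summed to 0.35, and the COMBO value was -0.46 (interaction -0.81 ± 0.070, adjusted p = 8.68e-08). MDH2 followed, with a sum of -0.025 and a COMBO value of -0.61 (interaction -0.58 ± 0.054, adjusted p = 2.50e-07). FH had a sum of -0.59 and a COMBO value of -1.06 (interaction -0.47 ± 0.058, adjusted p = 8.35e-06), and SDHA a sum of -0.062 and a COMBO value of -0.41 (interaction -0.35 ± 0.062, adjusted p = 0.000366).

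The interaction calls were not equally firm. The 4 calls at IDH2, MDH2, FH and SDHA held in all 18 alternative fits. IDH3A (-0.34, adjusted p = 0.00269) and OGDH (-0.28, adjusted p = 0.00179) each held in 17. The IDH3A call was lost without GDC replicate B (-0.24, adjusted p = 0.0556). The OGDH call was lost without a filter on low counts (-0.18, adjusted p = 0.0715). IDH1 (-0.21, adjusted p = 0.00945) held in 7 and CS (-0.18, adjusted p = 0.0111) in 6 of the 18. IDH3B (-0.21, adjusted p = 0.0467) held in 0 of the 18, with adjusted p from 0.0561 to 0.462. The interaction depends on scaling, because the median over all genes was itself -0.063 in the reported fit and -0.064 to 0.035 in the alternatives. Relative to it, the members' median of -0.34 lay 0.28 lower, and 0.24 to 0.29 lower in the alternatives.

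**Figure D3:**
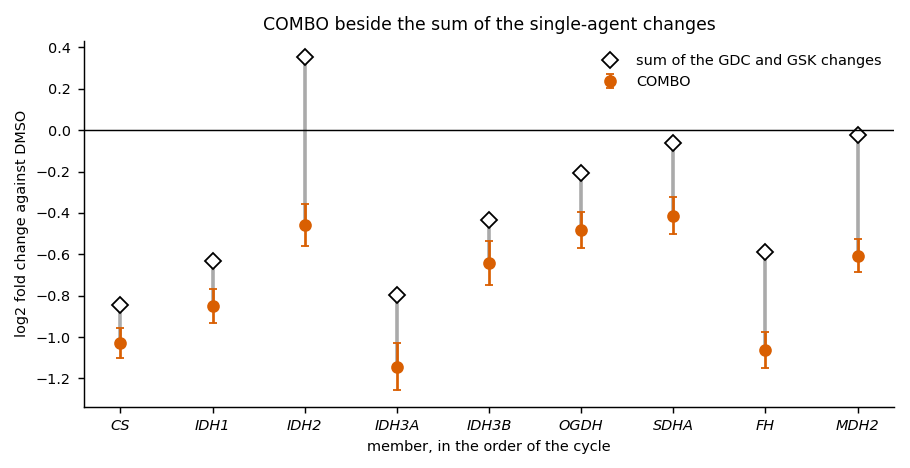
Log2 fold change against DMSO of each member in COMBO (points, with 95% intervals) beside the sum of its GDC and GSK changes (diamonds). Grey lines are the interaction. The line is longest at IDH2, from 0.35 to -0.46, and shortest at CS, from -0.85 to -1.03.

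Ratios of neighbouring members within a library do not depend on library scaling, so they show how the balance of the steps moved. There were 7 pairs in 3 arms, 21 exact permutation tests (two-sided, 3 against 3), for which 0.1 is the smallest p and 0.117 the smallest adjusted value reached here. No pair can therefore pass 0.05, and the sizes are given beside the overlap of the libraries. The log2 ratio of SDHA to FH was 0.055 ± 0.022 in DMSO and 0.21 ± 0.011, 0.43 ± 0.064 and 0.70 ± 0.018 in the GDC, GSK and COMBO arms (SD, n = 3), with no overlap between arms (exact p = 0.1 for each arm). FH to MDH2 went from -1.07 ± 0.024 in DMSO to -1.22 ± 0.050, -1.48 ± 0.019 and -1.52 ± 0.026. FH thus lost ground to both its neighbours in all 3 arms, without overlap with DMSO.

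CS to MDH2, the pair that meets at citrate synthesis, had a log2 ratio of 0.38 ± 0.047 for DMSO, 0.17 ± 0.043 for GDC, -0.23 ± 0.015 for GSK and -0.042 ± 0.019 for COMBO. The counts of CS exceeded those of MDH2 in all DMSO and GDC libraries and were under them in all GSK and COMBO libraries. OGDH to SDHA moved least, at 0.78 ± 0.014, 0.66 ± 0.015, 0.77 ± 0.047 and 0.71 ± 0.049, and only its GDC libraries were clear of DMSO (exact p = 0.1, 0.8 and 0.2). The ratio IDH3A to IDH3B was 0.74 ± 0.075 for DMSO, 0.49 ± 0.039 for GDC, 0.61 ± 0.12 for GSK and 0.22 ± 0.12 for COMBO, GSK being the arm that overlapped DMSO (exact p = 0.2).

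Among the IDH isoforms, IDH1 to IDH2 went from 1.38 ± 0.12 in DMSO to 1.02 ± 0.029, 0.74 ± 0.066 and 0.98 ± 0.038 in GDC, GSK and COMBO. IDH2 to IDH3A went the other way, from 0.28 ± 0.12 to 0.66 ± 0.057, 1.07 ± 0.048 and 0.98 ± 0.083. Both ratios were clear of DMSO in every treated arm, and both were farthest from it in GSK.

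**Figure D4:**
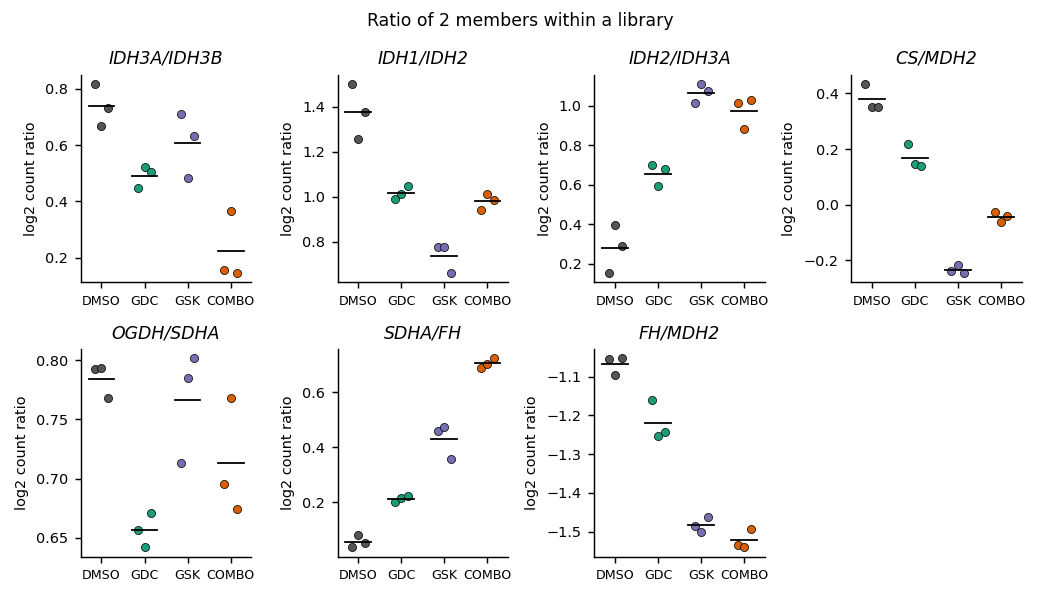
Log2 ratio of the counts of 2 members within each library, by arm, for 7 pairs. Points are libraries and lines are arm means, and the vertical axes differ between panels. SDHA/FH is higher and FH/MDH2 lower in each treated arm, and OGDH/SDHA overlaps DMSO in GSK and COMBO.

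The rest of the cycle was read from a list of 13 further genes that carry its steps as subunits, isozymes or cytosolic counterparts. In COMBO 8 of these 13 fell, 3 rose and 2 (IDH3G and SDHC) did not pass, with a median log2 fold change of -0.57 (all genes 0.054). Over all genes tested, 39.2% were lower and 43.3% higher. Among the genes that fell were SDHD, SDHB, SUCLG1 (-0.98 ± 0.054), MDH1, DLD, DLST and SUCLA2 (-0.57 ± 0.054). SUCLG1 and SUCLA2 are the alpha and the ADP-forming beta subunit of succinyl-CoA ligase. Those that rose were OGDHL, ACO1 (0.63 ± 0.048), the cytosolic aconitase that doubles as an iron sensor, and SUCLG2 (0.15 ± 0.059, adjusted p = 0.0301), the GDP-forming beta subunit. The SUCLG2 call was lost in 8 of 13 alternatives, and IDH3G and SDHC were called higher when libraries were scaled by their totals (0.20 and 0.23, adjusted p = 0.00367 and 0.000158). GDC gave 4 higher and 4 lower of the 13, near the background of 20% in each direction. GSK gave 5 higher and 7 lower (all genes 40% and 35.7%), and the interaction 0 higher and 9 lower (all genes 4.86% and 16.5%). The last count was 4 to 11 in the alternatives.

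Within step 5 the 2 alternative beta subunits had COMBO intervals that did not overlap, -0.68 to -0.46 for SUCLA2 and 0.021 to 0.27 for SUCLG2, as the plot of genes by step shows. ACO1 was higher in all 3 arms, at 0.23, 0.66 and 0.63 in GDC, GSK and COMBO (adjusted p = 0.00108, 2.22e-10 and 1.92e-10). The IDH2 call in GSK, also higher, held in all 13 alternatives.

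**Figure D5:**
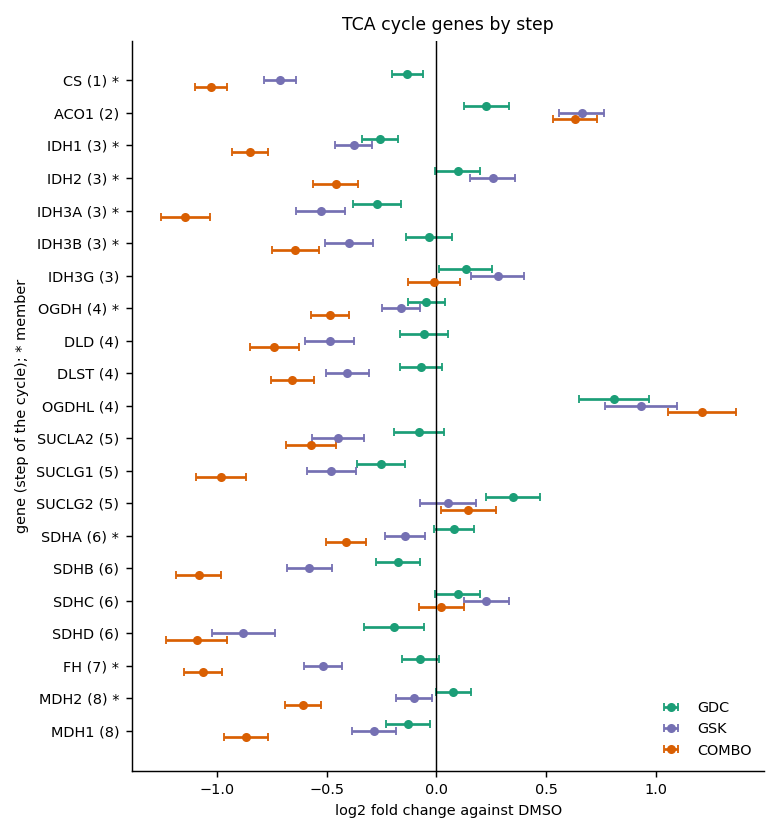
Log2 fold change against DMSO, with 95% intervals, of the 9 members (starred) and 12 other TCA cycle genes, grouped by step of the cycle (number in brackets). Steps 3 and 6 hold subunits on both sides of the range in COMBO, from -1.14 (IDH3A) to -0.011 (IDH3G) and from -1.09 (SDHD) to 0.023 (SDHC).

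Genes through which carbon enters or leaves the cycle were listed as well, 29 in all, of which 27 passed the filter on low counts and PCK1 and ME3 did not. In COMBO 21 of the 27 fell, 4 rose and 2 did not pass, with a median of -0.67, where 39.2% of all genes were lower and 43.3% higher. The lowest were carriers and transaminases of the shuttles that exchange malate, aspartate and 2-oxoglutarate with the cytosol. SLC25A10, the dicarboxylate carrier, was at -1.63 ± 0.062, GOT1, the cytosolic aspartate aminotransferase, at -1.55 ± 0.057, and SLC25A11, the oxoglutarate carrier, at -1.43 ± 0.049. GPT2 (-1.32), MPC2 of the pyruvate carrier (-1.30), ME1 (-1.28), the mitochondrial GOT2 (-1.28) and the aspartate-glutamate carrier SLC25A13 (-1.17) were also beyond one log2 unit.

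The genes of this list that rose in COMBO were GPT (1.12 ± 0.15), an alanine aminotransferase, ACSS1 (1.09 ± 0.055), the mitochondrial acetyl-CoA synthetase, and the glutamate dehydrogenases GLUD2 (0.38 ± 0.068) and GLUD1 (0.24 ± 0.048). GLUD1 and GLUD2 are close copies, so their reads may be split between them. Citrate export and cleavage, through SLC25A1 and ACLY, fell by 0.56 and 0.92 on the log2 scale (adjusted p = 2.31e-09 and 1.08e-14). Pyruvate carboxylase, PC, which feeds oxaloacetate into the cycle, was at -0.38 (adjusted p = 2.69e-05). GDC gave 5 higher and 11 lower of the 27 (20% of all genes in each direction), GSK 2 higher and 19 lower (40% and 35.7%), and the interaction 0 higher and 12 lower (4.86% and 16.5%).

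Assembly factors of succinate dehydrogenase were part of this list. SDHAF1, SDHAF2 and SDHAF3 fell in COMBO, by 0.79, 0.36 and 0.67 on the log2 scale (adjusted p = 1.54e-05, 2.89e-05 and 1.20e-08). SDHAF4, which acts on SDHA, had a value of 0.075 (95% interval -0.16 to 0.31, adjusted p = 0.533) and was higher in GDC (0.50, adjusted p = 0.00110).

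The genes whose changes were most like each member's were sought among 8823 tested genes of mean log2 CPM of at least 4, by the Euclidean distance over the 3 log2 fold changes against DMSO. MCAT and SSB lay nearest to CS (distances 0.022 and 0.034), MRPS18A and FHOD1 to IDH1 (0.029 and 0.040), GSR and C17orf79 to IDH3A (0.037 and 0.044), and KIAA0100 and TH1L to IDH3B (0.0080 and 0.017). TMED1 and RPL26L1 lay nearest to OGDH (0.020 and 0.023), PXMP2 and NDUFS1 to SDHA (0.017 and 0.028), PHGDH and PRDX4 to FH (0.015 and 0.046), and AIFM1 and LSMD1 to MDH2 (0.033 and 0.052). IDH2 stood apart in that its pattern had 1 close gene, DPP3 at 0.022, with the next, GSTM3, at 0.16. For every other member the second gene lay within 0.052. DPP3 had 0.081 in GDC, 0.24 in GSK and -0.46 in COMBO, next to 0.096, 0.26 and -0.46 for IDH2.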

How the data were processed

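PolyA RNA of C4.2B cells was sequenced in 12 libraries. The authors aligned reads to hg38 with STAR and counted with HTSeq. The deposited values are raw counts per gene symbol. Versions, annotation and strand setting are not given in the sources used here. The submitters' table of DESeq2-normalized values was not used. The 5 summary lines of each count file were left out of totals and tests. A count of 0 allows up to 3 counts, or 0.0675 to 0.341 CPM per library, for counting error only. Replicates differed by more than sampling noise.

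Counts were scaled by TMM and fitted in edgeR 4.0.16 (R 4.3.3) by quasi-likelihood (14189 genes kept by filterByExpr, 12 libraries in a single fit, no covariate, two-sided, Benjamini-Hochberg adjusted p under 0.05). The script was tested on simulated data. Pair ratios were compared by an exact permutation test. Coordinates and lengths are from GENCODE 44, promoters and older symbols from RefSeq tables (MPC2 is BRP44 in the files, SDHAF3 is ACN9 and SDHAF4 is C6orf57). Alternatives were DESeq2 1.42.0, edgeR with its size factors or with library totals, all genes unfiltered, genes with a mean CPM of 1 or more, the compared arms alone, a replicate block and fits without each library.

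The members (a list of names), the other lists and the tests were chosen with earlier results of these data known. Named genes were all members, genes of the lists led by the largest COMBO changes, counted pseudogenes, and the 2 genes nearest in pattern to each member. ACSBG1 and CIB2 were named after their overlap with IDH3A was found. Values of 3 genes of the lists are not reported here, although the list counts include them.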

Additional observations from a re-analysis of the deposited data

Results flagged for a closer look

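In the reported fit, the effect of GDC-0941 on each of the 9 members differed with and without GSK126 by a test of the difference itself, the interaction term of edgeR's quasi-likelihood test. On the log2 scale the interaction was -0.1822 for CS, -0.2145 for IDH1, -0.811 for IDH2, -0.3445 for IDH3A, -0.21 for IDH3B, -0.2768 for OGDH, -0.3511 for SDHA, -0.471 for FH and -0.5823 for MDH2. The median over all genes was -0.063 in the same fit. The call held in 0 of 18 alternatives for IDH3B, 6 for CS and 7 for IDH1, in 17 for IDH3A and OGDH, and in all 18 for the other 4 members. IDH2 is the member for which each single agent had a value above 0 and COMBO a value below 0.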

How the results depend on the processing

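Of 864 alternative values for member fold changes, 796 kept direction and side of the threshold, 53 lost the call, 9 gained it and 6 changed sign. COMBO against DMSO, COMBO against GDC and COMBO against GSK kept all 9 calls in every alternative. With library totals the median of all genes shifted by 0.15 in GSK, 0.21 in COMBO, 0.17 in COMBO against GDC and 0.12 in GSK against GDC, by that scaling's construction, and signs turned for IDH3B in GDC (0.001268), SDHA (0.01034) and MDH2 (0.05168) in GSK, and IDH1 (8.317e-05) and OGDH (0.004535) in GSK against GDC. Members called in GDC were then 6 (3 higher, 3 lower) in place of 3, and 3 to 5 when single libraries were left out, with 5 lower without DMSO replicate A, where IDH2 was at -0.003389 (range -0.003389 to 0.1062). Members with an interaction were 5 with no filter and 5 to 8 without single libraries (5 without GDC replicate B). The other TCA genes with one were 4 with no filter and 5 to 11 without single libraries (5 without DMSO replicate C, GDC replicate B, GSK replicate B or COMBO replicate A, against 9), and all genes 2014 to 2986 (2014 without DMSO replicate C, 732 higher and 1282 lower, against 3034). Without single libraries, the GSK minus DMSO difference in the OGDH to SDHA log2 ratio ranged from -0.03533 to 0.008931 (-0.018 with all). The cause of these changes was not tested.

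Over all arms, letters of replicates did not pair the samples (same-letter correlation -0.0839 to 0.188, median -0.0218, other-letter -0.146 to 0.104, median -0.0095). Between GDC and COMBO, however, the same-letter correlations were 0.116 (A), 0.188 (B) and 0.0727 (C), against -0.146 to 0.0453 for other letters. With a replicate block the IDH3B interaction was -0.2096 (adjusted p = 0.0561) and no other member's call was lost. Members had 742 to 31993 counts per library, and counting error and replicate spread were not separated. PolyA counts per symbol do not separate isoforms.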
